A study of Rattus norvegicus with 24 samples.

Results

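Protocadherins are cell adhesion proteins of the cadherin superfamily, most of them abundant in developing neurons. The clustered ones are coded by alpha, beta and gamma arrays in which each variable exon has its own promoter, and a neuron that switches on its own subset uses it to tell its processes from those of other cells. The non-clustered ones are separate genes with roles in axon growth, synapse assembly and cell sorting, several of them in the circuits that join cortex and striatum.

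Of the 23950 genes measured in nucleus accumbens, 41 have a name that starts with Pcdh, and all 41 are described here. They are 11 non-clustered genes and 30 clustered ones, of which 3 are alpha, 17 beta and 10 gamma. The libraries come from Sprague Dawley rat pups at postnatal day 14, with 4 pups of unstated sex, from separate litters, in each of 6 groups. In the F1 generation, IUO pups were exposed to the opioid oxycodone in utero, PNO pups after birth through the milk, and SAL pups were saline controls. Dams of the IUO pups took oxycodone by gavage at 10 mg/kg/day over 5 days and then in daily steps of 0.5 mg/kg over 10 days up to 15 mg/kg/day. They were then mated and kept on the drug until the pups were weaned, whereas PNO dams received 15 mg/kg/day from birth to weaning. F2 IUO, F2 PNO and F2 SAL pups were born to F1 females of the same groups, which were not dosed themselves and were bred with males. Levels are FPKM, fragments per kilobase of transcript scaled to the mapped total of a library. The number of reads behind each library is unknown, so no counting interval is given.

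Striatal identity could be checked against 11 marker genes, all found. Their summed level averaged 1010 FPKM in F1 SAL, 702 in F1 PNO, 1051 in F1 IUO, 956 in F2 SAL, 905 in F2 PNO and 698 in F2 IUO, with Ppp1r1b, the DARPP-32 gene of medium spiny neurons, the most abundant. Markers of neighbouring tissue were present too, at levels that differed between libraries. The 8 thalamus markers, led by Calb2, summed to between 81.2 and 437 FPKM, and the 8 cortex markers, led by Nrgn, to between 459 and 1600. Nrgn made up most of the cortex sum, which therefore shows little of the other cortex markers. In F1 SAL 3 it was at 554 FPKM of 569, with Slc17a7 at 3.94. Slc17a7 ran from that value to 277 FPKM in F2 IUO 2. None of the markers of these 3 lists was under 0.1 FPKM throughout. Choroid plexus markers (8 of 8, led by Ttr) ran from 5.58 to 12257 FPKM, hypothalamus markers (8 of 8) from 5.49 to 832, and blood markers from 12.9 to 471. The 5 blood genes were led by both genes named Hba-a2, and Hbb-bs of the list was not found. Of the hypothalamus list, Pomc led in F2 PNO through F2 PNO 4 alone, at 818 FPKM with 1.09 to 5.38 in the other 23 libraries, and Avp or Oxt had the highest mean in each of the other 5 groups. Vascular and meningeal markers (7 of 8 found, led by Col1a1) ran from 29.9 to 114 FPKM and oligodendrocyte lineage markers (8 of 8, led by Mbp) from 702 to 3017.

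F2 PNO 1 and F2 IUO 4 stood apart from the other libraries in their protocadherins. The 41 genes summed to 57.3 FPKM in F2 PNO 1 and to 79.1 in F2 IUO 4, against 133 to 188 in the other 22 libraries. F2 PNO 1 held the lowest of the 24 values for 27 of the 41 genes, and F2 IUO 4 for 7. Among 11631 genes with a RefSeq gene span, 85.0% of the 13676 with a mean above 1 FPKM, the fifth with the longest spans stood at -0.68 log2 units in F2 PNO 1 and at -0.56 in F2 IUO 4 relative to the median over libraries, whereas the other 22 lay between -0.18 and 0.18. F2 IUO 1 was the lowest of these 22. Group means of this measure were 0.07 in F1 SAL, -0.02 in F1 PNO and 0.12 in F1 IUO. In F2 they were -0.05 in SAL, -0.15 in PNO and -0.20 in IUO, with all libraries. Mitochondrial transcripts made up 41.8% of the summed FPKM in F2 PNO 1, the highest share of the 24, and 33.7% in F2 IUO 4, within the 17.0% to 40.4% of the others. Oligodendrocyte lineage markers summed to 3017 FPKM in F2 PNO 1 and to 1123 in F2 IUO 4, with 702 to 1935 in the other 22. The part of these values in the protocadherin levels was not tested, and the F2 comparisons below also give protocadherin counts without these libraries.

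The family covered a wide range of levels. Means over the 24 libraries ran from 0.0196 FPKM for Pcdhb1 to 26.3 for Pcdh10, with a median of 1.98 that lay next to the median of 1.99 over all 23932 genes with a mean above 0. The 3 most abundant genes, Pcdh10, Pcdh8 and Pcdh1, held 39.0% of the summed mean. In every library 39 or more of the 41 genes reached 0.1 FPKM, and 37 did so in all 24. Pcdhb1 was the lowest, listed at 0 in 16 libraries and never above 0.17 FPKM. The order of the genes was much the same throughout: ranked across the 41 genes, which are not independent replicates, each library correlated with the mean of the others at a Spearman rho of 0.821 (F2 PNO 1) to 0.979, with a median of 0.960.

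**Figure D1:**
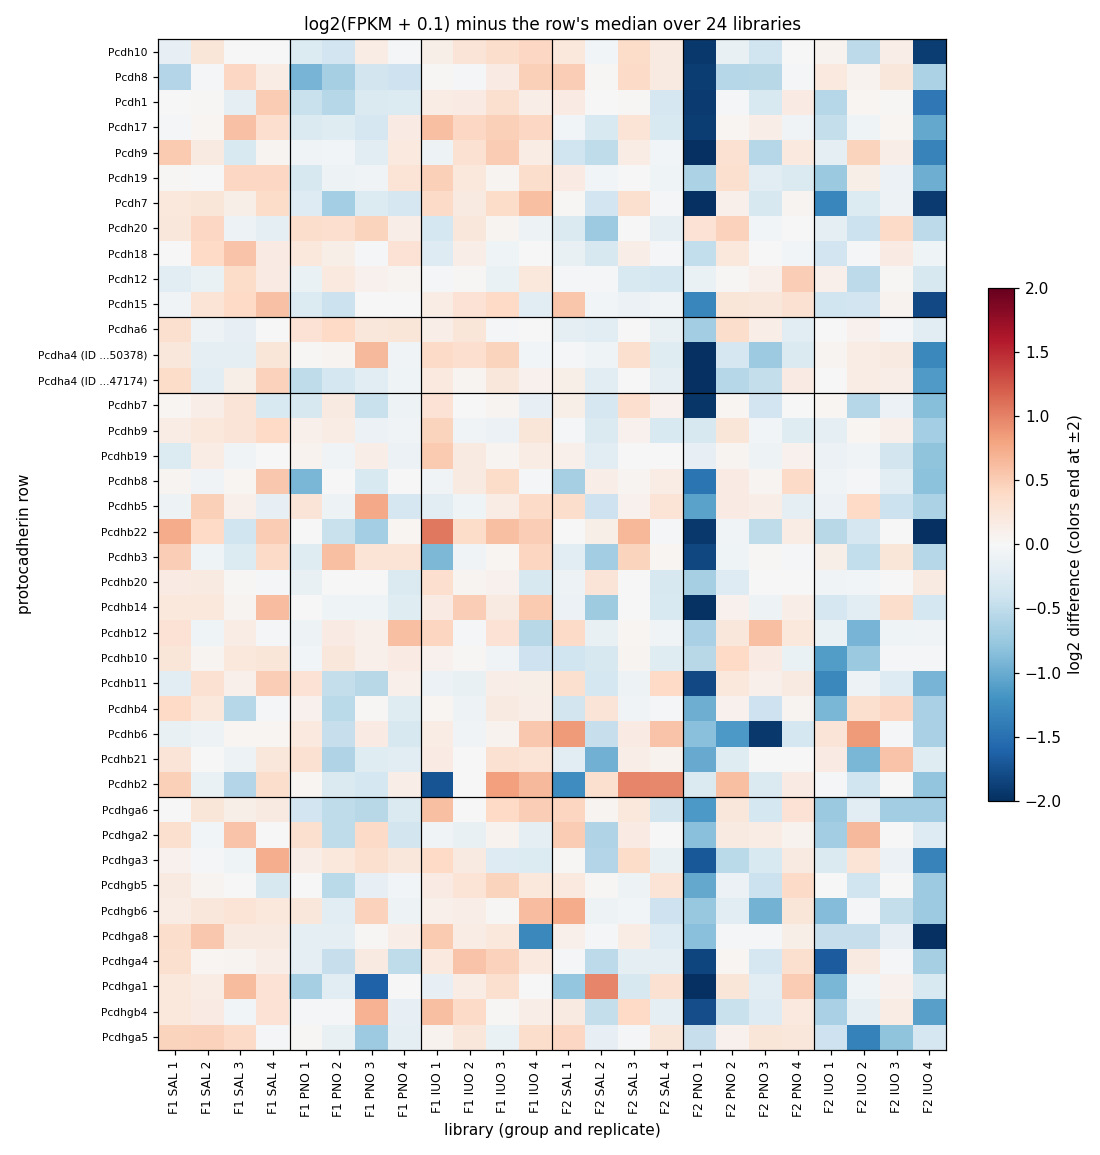
Level of 40 protocadherins (rows, in the order of their mean within non-clustered, alpha, beta and gamma) in 24 libraries (columns, by group and replicate), as log2(FPKM + 0.1) minus the median of the gene over the libraries; Pcdhb1 is left out. Blue columns at F2 PNO 1 and F2 IUO 4 are the libraries with the lowest sums, 57.3 and 79.1 FPKM.

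Non-clustered genes stood highest. Their means ran from 1.07 to 26.3 FPKM with a median of 5.24, and they made up most of the protocadherin sum, since the clustered share lay between 31.3% and 43.1% of it. Pcdh10, whose cytoplasmic part recruits an actin regulator, the WAVE complex, averaged 27.7 ± 3.40 FPKM (SD, n = 4) in F1 SAL. Pcdh10 (ENSRNOG00000031974) read 24.2, 32.4, 27 and 27.4 FPKM in F1 SAL 1 to 4, 22.5, 20.9, 30.1 and 26.5 in F1 PNO 1 to 4 and 29.6, 32.5, 34.7 and 36.4 in F1 IUO 1 to 4. Its F2 values were 31.4, 26.1, 35.1 and 30.7 in SAL, 7.1, 24.6, 20.6 and 27 in PNO and 28.7, 18.8, 29.8 and 7.22 in IUO. The F1 IUO pups lay high and the 2 libraries with low sums far below every other. Pcdh8, a neuronal activity-regulated gene also called arcadlin, averaged 19.1 ± 5.25 FPKM (SD, n = 4) in F1 SAL and was the most variable of the non-clustered genes over the 22 libraries, with a coefficient of variation of 26.4%. In replicates 1 to 4, the F1 SAL values of Pcdh8 (ENSRNOG00000013101) were 12.5, 18.2, 25 and 20.7 FPKM, those of F1 PNO 9.75, 11.8, 14.4 and 13.9 and those of F1 IUO 18.9, 18.4, 20.9 and 25.9. The F2 pups had 26.4, 19, 24.5 and 21.2 (SAL), 4.94, 12.5, 12.6 and 18.2 (PNO) and 21.3, 19.6, 22 and 12 FPKM (IUO). Most PNO pups lay toward the lower end for this gene. Pcdh1, a gene of epithelia as well as brain, averaged 18.4 ± 4.02 FPKM (SD, n = 4) in the same pups. Pcdh1 (ENSRNOG00000060410) read 17.1, 17.3, 15 and 24.2 FPKM in F1 SAL 1 to 4, 12.6, 11.5, 13.9 and 14.1 in F1 PNO 1 to 4 and 19, 19.2, 21.3 and 18.8 in F1 IUO 1 to 4. For F2 the values were 19.1, 17, 17.3 and 13.6 in SAL, 4.46, 16.7, 13.8 and 19 in PNO and 11.5, 17.6, 17.4 and 6.24 in IUO. All 3 genes had their lowest value in F2 PNO 1. Pcdh17, which organises presynaptic assembly in corticobasal ganglia circuits, followed with a mean over all libraries of 11.4 FPKM, then Pcdh9 with 8.39, Pcdh19, an X-linked epilepsy gene, with 5.24, and Pcdh7 with 4.93. Pcdh20 averaged 3.94 FPKM and Pcdh18, which binds the adaptor Dab1, 3.37. Lowest were Pcdh12, the vascular endothelial member, with 1.15 FPKM and Pcdh15, known from the tip links of hair cells, with 1.07. Pcdh18 varied least of the 11, with a coefficient of variation of 16.3% over the 22 libraries.

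Clustered genes were lower and closer together. Alpha genes had means of 1.28 to 6.96 FPKM, the gamma genes of 0.964 to 3.05 and the 16 beta genes other than Pcdhb1 of 0.254 to 2.55. These names need care, since alpha and gamma transcripts share constant exons and the variable exons of an array resemble each other, so how reads were split between neighbours is uncertain. The gene named Pcdha6 carries 10 transcripts and is described as alpha-C2, and 2 genes are both named Pcdha4 and are told apart here by their identifiers. Of these, ENSRNOG00000050378 is described as alpha-3. Some beta genes also carry another description, such as beta-4 for Pcdhb7, beta-5 for Pcdhb10 and beta-11 for Pcdhb19. No gene of its own stands for a C-type gamma isoform. In replicates 1 to 4, the F1 SAL values of Pcdha6 (ENSRNOG00000020119) were 8.52, 6.29, 6.03 and 6.72 FPKM, those of F1 PNO 8.35, 9, 7.94 and 8.02 and those of F1 IUO 7.46, 8.04, 6.58 and 6.84. Its F2 values were 5.92, 5.82, 6.85 and 6.1 in SAL, 4.17, 8.68, 7.49 and 5.84 in PNO and 6.74, 7.23, 6.58 and 5.83 in IUO. Its highest value of all stood in F1 PNO 2 and its lowest in F2 PNO 1. Pcdha4 ENSRNOG00000050378 averaged 2.18 FPKM over all libraries and Pcdha4 ENSRNOG00000047174 averaged 1.28, with their lowest values, 0.18 and 0.16, in F2 PNO 1. Pcdha4 ENSRNOG00000047174 read 1.81, 1.18, 1.5 and 1.94 FPKM in F1 SAL 1 to 4, 0.94, 1.05, 1.18 and 1.29 in F1 PNO 1 to 4 and 1.58, 1.44, 1.62 and 1.46 in F1 IUO 1 to 4. The F2 pups had 1.5, 1.17, 1.37 and 1.2 (SAL), 0.16, 0.89, 0.96 and 1.56 (PNO) and 1.38, 1.54, 1.52 and 0.57 FPKM (IUO). All F1 PNO values of this gene lay below all F1 IUO values.

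Among beta genes the order by mean began with Pcdhb7, Pcdhb9 and Pcdhb19. In replicates 1 to 4, the F1 SAL values of Pcdhb7 (ENSRNOG00000046264) were 2.84, 3.02, 3.31 and 2.2 FPKM, those of F1 PNO 2.18, 3.12, 2 and 2.56 and those of F1 IUO 3.4, 2.76, 2.86 and 2.43. For F2 the values were 3, 2.15, 3.48 and 2.92 in SAL, 0.64, 2.82, 2.09 and 2.74 in PNO and 2.82, 1.82, 2.52 and 1.48 in IUO. Both libraries with low sums lay below all others. Pcdhb9 (ENSRNOG00000020072) read 2.71, 2.83, 2.91 and 3.22 FPKM in F1 SAL 1 to 4, 2.61, 2.69, 2.22 and 2.3 in F1 PNO 1 to 4 and 3.34, 2.3, 2.23 and 2.88 in F1 IUO 1 to 4. Its F2 values were 2.36, 1.96, 2.57 and 1.95 in SAL, 1.93, 2.88, 2.32 and 2.03 in PNO and 2.13, 2.49, 2.61 and 1.47 in IUO. This gene was nearly as high in F2 PNO 1 as in the F2 controls. In replicates 1 to 4, the F1 SAL values of Pcdhb19 (ENSRNOG00000039469) were 1.76, 2.4, 2.04 and 2.16 FPKM, those of F1 PNO 2.27, 2.04, 2.37 and 1.98 and those of F1 IUO 3.13, 2.46, 2.23 and 2.4. The F2 pups had 2.32, 1.85, 2.14 and 2.16 (SAL), 1.9, 2.24, 1.99 and 2.29 (PNO) and 1.98, 2.04, 1.64 and 1.19 FPKM (IUO). Its groups overlapped in all 7 pairs compared. Without the libraries with low sums, Pcdhb7 ran from 1.82 to 3.48 FPKM, Pcdhb9 from 1.95 to 3.34 and Pcdhb19 from 1.64 to 3.13. Pcdhb20 was the steadiest member of the family, with a coefficient of variation of 12.7% over the 22 libraries and a range of 1.36 to 2.18 FPKM. At the other end, Pcdhb6, Pcdhb21 and Pcdhb2 averaged 0.436, 0.429 and 0.254 FPKM, and Pcdhb2 was listed at 0 in F1 IUO 1.

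Gamma genes were led by Pcdhga6, Pcdhga2 and Pcdhga3 with means of 3.05, 2.99 and 2.93 FPKM. Pcdhga2 (ENSRNOG00000034126) read 3.65, 2.79, 4.38 and 2.93 FPKM in F1 SAL 1 to 4, 3.68, 2.01, 3.82 and 2.25 in F1 PNO 1 to 4 and 2.78, 2.61, 3.07 and 2.54 in F1 IUO 1 to 4. For F2 the values were 4.17, 1.88, 3.29 and 2.9 in SAL, 1.59, 3.32, 3.25 and 3.07 in PNO and 1.77, 4.62, 2.9 and 2.43 in IUO. Replicates spread widely within most groups. In replicates 1 to 4, the F1 SAL values of Pcdhga3 (ENSRNOG00000039461) were 3.18, 2.93, 2.79 and 5.01 FPKM, those of F1 PNO 3.28, 3.45, 3.74 and 3.51 and those of F1 IUO 3.97, 3.39, 2.48 and 2.46. Its F2 values were 3.03, 1.96, 3.87 and 2.67 in SAL, 0.85, 2.02, 2.38 and 3.37 in PNO and 2.43, 3.64, 2.73 and 1.12 in IUO. Neither gene had groups that separated in F1. Pcdhga6 did, and its values stand with the F1 comparisons. The least abundant gamma genes were Pcdhgb4 with 1.10 FPKM and Pcdhga5 with 0.964.

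Comparing F1 PNO with F1 SAL asks how the accumbens differs under exposure through the milk alone, which was still going on at sampling. Protocadherins tended to the lower side in PNO pups: 31 of the 40 genes tested had a lower estimate and 9 a higher one. The summed level was 143 ± 9.91 FPKM in F1 PNO and 172 ± 8.22 in F1 SAL (SD, n = 4), and the difference was larger for the non-clustered genes, 88.6 against 111 FPKM, than for the clustered ones, 54.6 against 60.7. In bulk tissue, fewer cells of a type and less RNA per cell cannot be told apart. Each gene with at least 0.1 FPKM in 4 or more of the 8 libraries was tested on log2(FPKM + 0.1) by limma, two-sided, which left out Pcdhb1, and p was adjusted over all genes by Benjamini-Hochberg. These p values measure the spread between libraries from separate litters. At an unadjusted p under 0.05, 7 of 40 genes were lower in PNO (17.5%) and 0 higher, whereas 7.83% of the 17494 genes tested were lower and 6.11% higher. None passed after adjustment over all genes, and 0% of all genes did. With all 24 libraries in one fit the count was 2 lower and 0 higher, against 3.12% and 4.22% of all genes. The median log2 difference was -0.20 for protocadherins and -0.05 for all genes.

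The 7 were Pcdh7, Pcdhga6, Pcdh1, Pcdh8, Pcdhga1, Pcdh17 and Pcdhga5, 4 of the 11 non-clustered genes and 3 of the 10 gamma genes, with 0 of 3 alpha and 0 of 16 beta genes. Pcdh7 (ENSRNOG00000012367) was at 6.09, 6.23, 5.74 and 6.8 FPKM in F1 SAL 1 to 4 and at 4.38, 3.24, 4.34 and 4.14 in F1 PNO 1 to 4. Every PNO pup was below every SAL pup, a log2 difference of -0.62 (95% interval -0.93 to -0.32, limma adjusted p = 0.231, exact permutation p = 0.0286, the smallest that 4 against 4 allows). For Pcdhga6 (ENSRNOG00000027296) the values were 3.14, 3.73, 3.42 and 3.59 FPKM in F1 SAL 1 to 4 and 2.39, 2.19, 2.11 and 2.55 in F1 PNO 1 to 4. These groups did not overlap either, with a difference of -0.57 (-0.88 to -0.25, limma adjusted p = 0.231, exact permutation p = 0.0286). Pcdh1 measured 17.1, 17.3, 15 and 24.2 FPKM in F1 SAL 1 to 4 and 12.6, 11.5, 13.9 and 14.1 in F1 PNO 1 to 4. The PNO values again lay below all 4 SAL values, and the highest SAL value, in F1 SAL 4, stood well above the rest. Its difference was -0.48 (-0.82 to -0.14, limma adjusted p = 0.250, exact permutation p = 0.0286).

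Pcdh8 was at 12.5, 18.2, 25 and 20.7 FPKM in F1 SAL 1 to 4 and at 9.75, 11.8, 14.4 and 13.9 in F1 PNO 1 to 4. F1 SAL 1 lay inside the PNO range, and the log2 difference was -0.58 (-1.06 to -0.11, limma adjusted p = 0.291, exact permutation p = 0.0857). For Pcdhga1 (ENSRNOG00000039463) the values were 1.4, 1.33, 1.9 and 1.49 FPKM in F1 SAL 1 to 4 and 0.72, 1.01, 0.32 and 1.19 in F1 PNO 1 to 4. Every PNO value was lower than every SAL value, and F1 PNO 3 was the lowest by far. The difference for Pcdhga1 was -0.95 (-1.73 to -0.17, limma adjusted p = 0.292, exact permutation p = 0.0286), or -0.62 without F1 PNO 3. Pcdh17 (ENSRNOG00000008970) measured 10.9, 11.6, 16.9 and 14.3 FPKM in F1 SAL 1 to 4 and 9.16, 9.54, 8.91 and 12.6 in F1 PNO 1 to 4. With F1 PNO 4 inside the SAL range, Pcdh17 gave -0.41 (limma adjusted p = 0.323, exact permutation p = 0.0857). Pcdhga5 (ENSRNOG00000027299) was at 1.36, 1.38, 1.3 and 0.95 FPKM in F1 SAL 1 to 4 and at 0.99, 0.87, 0.55 and 0.84 in F1 PNO 1 to 4. Here F1 SAL 4 lay inside the PNO range, and the difference was -0.57 (limma adjusted p = 0.327, exact permutation p = 0.0571). With 1 library left out at a time, Pcdh7, Pcdhga6 and Pcdh1 stayed under the unadjusted threshold throughout. Pcdhga1 was not under it without F1 SAL 3, Pcdh8 without F1 SAL 3, F1 SAL 4 or F1 PNO 1, Pcdh17 without F1 SAL 3, F1 SAL 4 or F1 PNO 1, 2 or 3 and Pcdhga5 without F1 SAL 1, 2 or 3 or F1 PNO 2, 3 or 4. By the exact permutation test alone, 7 of 40 genes had a p under 0.05, all lower in PNO, against 4.80% of all genes lower and 3.47% higher. They include 4 of the 7 above, and the others are Pcdhb9, Pcdhb14 and Pcdhga8, of which the last is named after its values were seen. Of the genes with a higher estimate, Pcdha6 was the most abundant, at 8.33 ± 0.482 FPKM (SD, n = 4) against 6.89 ± 1.12 FPKM (SD, n = 4) for SAL.

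**Figure D2:**
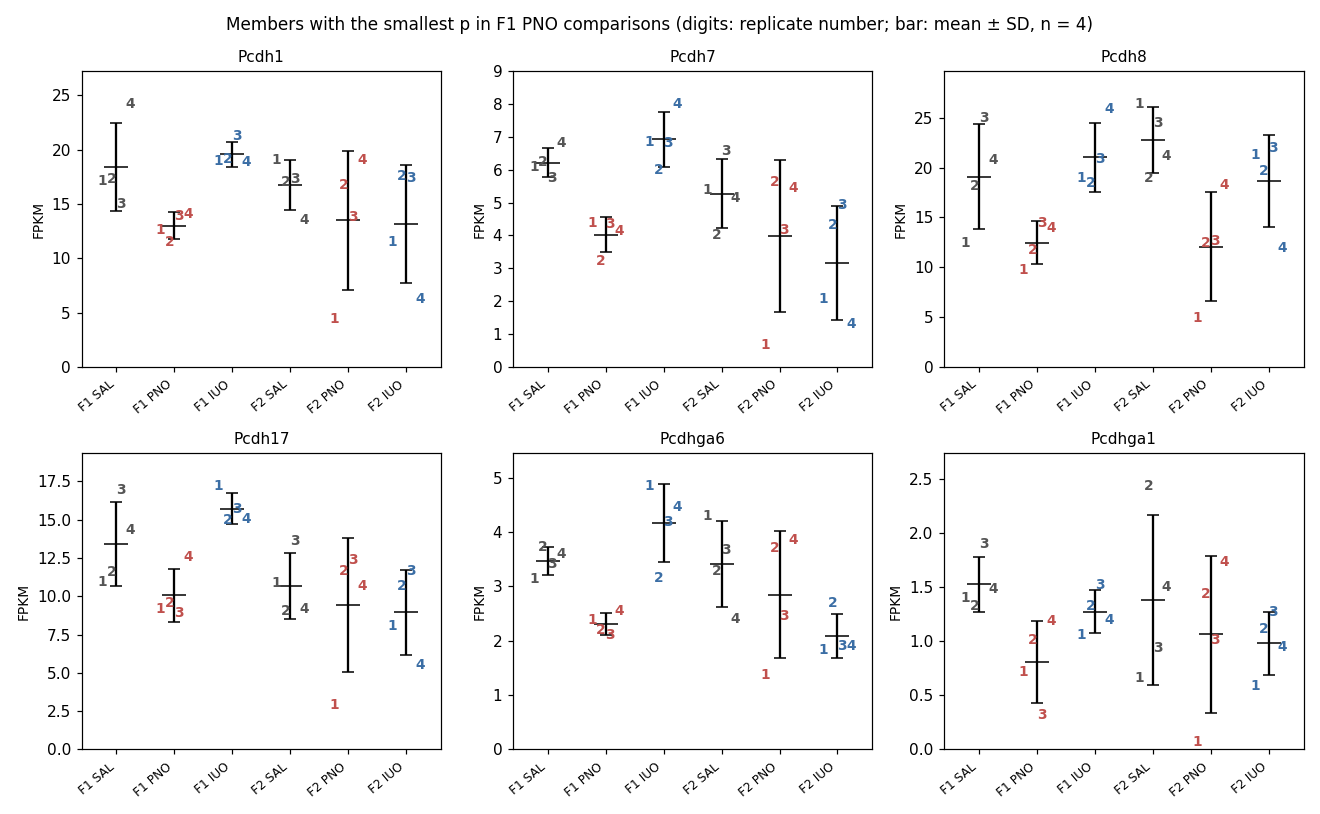
FPKM of Pcdh1, Pcdh7, Pcdh8, Pcdh17, Pcdhga6 and Pcdhga1 in the 6 groups; digits mark the replicate of each library and bars the mean ± SD (n = 4), on linear axes from 0. For Pcdh7 the 4 F1 PNO values, 3.24 to 4.38, all lie below the F1 SAL and F1 IUO values.

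F1 PNO pups also differed in tissue markers. The thalamus list summed to 187, 437, 270 and 353 FPKM in F1 PNO 1 to 4 and to 259, 175, 153 and 85.1 in F1 SAL 1 to 4. All 8 thalamus markers had a higher estimate in PNO, 5 of them (Gbx2, Lef1, Prkcd, Slc17a6 and Tcf7l2) at an unadjusted p under 0.05, with a median log2 difference of 1.34. All 11 striatum markers had a lower estimate, 1 of them, Pde10a, at that threshold, with a median of -0.45. Of 7 hypothalamus markers tested, 3 (Avp, Otp and Oxt) were lower at that threshold, and all 8 cortex markers had a higher estimate, with a median of 0.77 and 0 past it. The fifth of genes with the longest spans averaged -0.02 log2 units in F1 PNO and 0.07 in F1 SAL. Mitochondrial transcripts made up 40.4%, 39.2%, 24.1% and 33.5% of the summed FPKM in F1 PNO 1 to 4. In F1 SAL 1 to 4 they made up 34.4%, 36.6%, 33.3% and 32.5%. The part of this tissue mixture, of gene span and of mitochondrial share in the protocadherin values was not tested. With the thalamus score as a covariate, 3 protocadherins were lower in PNO and 0 higher at an unadjusted p under 0.05, against 2.67% and 2.29% of all genes in that fit, and Pcdh1 and Pcdh8 gave -0.32 and -0.29.

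The comparison of F1 IUO with F1 SAL asks how the accumbens differs under exposure from conception on, which also still went on at sampling. Protocadherins were nearly level here. The sum was 184 ± 4.95 FPKM in F1 IUO and 172 ± 8.22 in F1 SAL, with 21 of 40 estimates higher and 19 lower and a median log2 difference of 0.01, the same as for all genes. One gene, Pcdh10, was higher and 0 lower at an unadjusted p under 0.05 by limma (2.50% of the 40), against 1.93% of all 17380 genes higher and 1.97% lower, so the count lies near the background. After adjustment 0 protocadherins and 0% of all genes passed. For Pcdh10 the values were 24.2, 32.4, 27 and 27.4 FPKM in F1 SAL 1 to 4 and 29.6, 32.5, 34.7 and 36.4 in F1 IUO 1 to 4. F1 SAL 2 lay inside the IUO range, and the log2 difference was 0.27 (0.01 to 0.53, limma adjusted p = 0.999, exact permutation p = 0.0571). It was no longer under 0.05 without F1 SAL 1, 3 or 4 or without F1 IUO 2, 3 or 4. The count was then 0, except that without F1 SAL 3 it was 1, through Pcdh17 (0.36). The range of the share of all genes over these fits is given with the leave-one-out counts below.

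Next in order of p were Pcdh18, Pcdhgb5, Pcdh17 and Pcdhga2. Pcdh18 (ENSRNOG00000009949) measured 3.31, 4.37, 4.89 and 3.69 FPKM in F1 SAL 1 to 4 and 2.73, 3.61, 3.08 and 3.26 in F1 IUO 1 to 4. Pcdhgb5 (ENSRNOG00000039457) was at 3.11, 2.87, 2.73 and 2.17 FPKM in F1 SAL 1 to 4 and at 3.1, 3.34, 3.77 and 3.21 in F1 IUO 1 to 4. Pcdh18 tended lower and Pcdhgb5 higher in IUO pups, with log2 differences of -0.34 and 0.30 and overlapping values. For Pcdh17 the values were 10.9, 11.6, 16.9 and 14.3 FPKM in F1 SAL 1 to 4 and 17.2, 15, 15.7 and 15 in F1 IUO 1 to 4. Pcdhga2 measured 3.65, 2.79, 4.38 and 2.93 FPKM in F1 SAL 1 to 4 and 2.78, 2.61, 3.07 and 2.54 in F1 IUO 1 to 4. For Pcdh17 the difference was 0.24 and for Pcdhga2 -0.29, and all 4 had a limma adjusted p of 0.999. With 1 library left out at a time, Pcdh17 ran from 0.15 to 0.36 and Pcdhga2 from -0.38 to -0.17. Scaling each library to its upper quartile moves the median of all genes by -0.12 log2 units in this comparison, and the median of the protocadherins then turns from 0.01 to -0.11, with 28 of 40 estimates lower. The count then goes from 1 higher and 0 lower to 0 higher and 1 lower (Pcdh18, -0.46), against 0.911% and 3.92% of all genes, with Pcdh10 at 0.14 and no longer under the threshold. By estimate, all 8 cortex markers were higher in F1 IUO than in F1 SAL. Their summed means were 1025 and 711 FPKM, of which Nrgn made up 798 and 532. At an unadjusted p under 0.05, 2 of these 8, 4 of 7 hypothalamus markers tested and 2 of 3 blood markers tested were higher. Blood markers had summed means of 147 FPKM in F1 IUO and 34.9 in F1 SAL, and mitochondrial shares averaged 29.7% and 34.2%. Their part was not tested.

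F1 IUO and F1 PNO pups were both reared by treated dams, so their comparison asks what exposure before birth adds. It uses the same PNO libraries as the comparison with saline, and the values are not independent of it. Protocadherins were higher in IUO pups in 29 of 40 estimates. At an unadjusted p under 0.05 by limma, 10 of 40 genes (25.0%) were higher and 0 lower, where 10.1% of the 17306 genes tested were higher and 6.41% lower. No protocadherin passed after adjustment, while 23 genes (0.133%) did. Fitting all 24 libraries at once gave 2 higher and 0 lower, against 5.79% and 6.17% of all genes. The median log2 difference was 0.23 for protocadherins and 0.03 for all genes. Non-clustered genes gave 5 of 11, gamma genes 3 of 10, beta genes 2 of 16 and alpha genes 0 of 3.

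The 5 genes with the smallest p were Pcdh1, Pcdh7, Pcdh17, Pcdh8 and Pcdhga6, whose PNO values are given above. Pcdh1 was at 19, 19.2, 21.3 and 18.8 FPKM in F1 IUO 1 to 4. Pcdh7 measured 6.85, 6, 6.81 and 8 FPKM in F1 IUO 1 to 4. Pcdh17 was at 17.2, 15, 15.7 and 15 FPKM in F1 IUO 1 to 4. All 4 IUO pups were above all 4 PNO pups for each of these genes. By exact permutation, 10 of 40 protocadherins had a p under 0.05, all higher in IUO. Of all 17306 genes, 1084 were higher and 726 lower by that test. Pcdh1 differed by 0.59 log2 units (95% interval 0.35 to 0.82, limma adjusted p = 0.0822, exact permutation p = 0.0286), which is the smallest adjusted p of any protocadherin here. Pcdh7 differed by 0.77 (0.42 to 1.12, limma adjusted p = 0.0884, exact permutation p = 0.0286) and Pcdh17 by 0.65 (0.36 to 0.95, limma adjusted p = 0.0884, exact permutation p = 0.0286).

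Pcdh8 measured 18.9, 18.4, 20.9 and 25.9 FPKM in F1 IUO 1 to 4. Pcdhga6 was at 4.85, 3.16, 4.19 and 4.47 FPKM in F1 IUO 1 to 4. Neither gene had overlapping groups. Pcdh8 differed by 0.75 log2 units (0.39 to 1.11, limma adjusted p = 0.103, exact permutation p = 0.0286) and Pcdhga6 by 0.81 (0.41 to 1.22, limma adjusted p = 0.110, exact permutation p = 0.0286). The other 5 genes past the unadjusted threshold had log2 differences of 0.42 (Pcdh10) to 0.90 (Pcdhb22) and limma adjusted p values of 0.146 to 0.299, with Pcdhga4, Pcdhgb5 and Pcdhb14 between. These last 3 were not under it without F1 PNO 2 or F1 IUO 2, nor was Pcdhga4 without F1 PNO 4 or F1 IUO 3, Pcdhgb5 without F1 IUO 3 or Pcdhb14 without F1 PNO 1, 3 or 4 or F1 IUO 4. Pcdhb22 (ENSRNOG00000020028) was at 3.53, 2.16, 2.55 and 2.38 FPKM in F1 IUO 1 to 4 and at 1.64, 1.19, 0.99 and 1.7 in F1 PNO 1 to 4. F1 IUO 1 was the highest of the 24 libraries for Pcdhb22.

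Here too the marker lists moved. Striatum markers summed to 1202, 1230, 894 and 879 FPKM in F1 IUO 1 to 4 and to 775, 568, 676 and 789 in F1 PNO 1 to 4, with 8 of 11 higher in IUO at an unadjusted p under 0.05 and a median log2 difference of 0.65. The thalamus list summed to 81.2, 109, 184 and 294 FPKM in F1 IUO 1 to 4, with 7 of its 8 estimates lower in IUO, 4 of them at that threshold. Hypothalamus markers were higher for 5 of 7 at the same threshold, with summed means of 109 and 10.0 FPKM, and 1 passed after adjustment. Oligodendrocyte lineage markers had 7 of 8 estimates higher, 2 of them (Cspg4 and Pdgfra) at that threshold. Cortex markers had 7 of 8 higher, 1 of them (Nrgn) at it. The fifth of genes with the longest spans averaged 0.12 log2 units in F1 IUO and -0.02 in F1 PNO. Mitochondrial shares were 39.0%, 34.3%, 28.5% and 17.0% in F1 IUO 1 to 4, with a mean of 29.7% against 34.3% in F1 PNO. The part of the markers, of gene span and of mitochondrial share in the protocadherin values was not tested. Upper-quartile scaling moves the median of all genes by -0.12 log2 units, and the split of protocadherins past the unadjusted threshold then goes from 10 higher and 0 lower to 7 and 1, against 5.34% and 11.2% of all genes, with a median of 0.11 against -0.08 for all genes. With a cortex covariate 6 were higher and 0 lower, against 3.35% and 3.73% of all genes.

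As in F1, the 3 F2 comparisons share libraries with each other. Comparing F2 PNO with F2 SAL asks whether pups whose mothers had taken the drug in as sucklings, but which were not dosed themselves, differ from controls. Over all 4 pups the protocadherins tended lower by estimate, 127 ± 48.3 FPKM in sum against 162 ± 18.0 in F2 SAL, with 33 of 40 estimates lower and a median log2 difference of -0.29, where all genes had -0.08. Without F2 PNO 1 this turned: 21 estimates were higher and 19 lower, with a median of 0.04 and of 0.02 for all genes. At an unadjusted p under 0.05 by limma, 2 of 40 genes (5.00%) were lower and 0 higher, against 6.83% lower and 3.97% higher of 17367 genes, so the count lies near the background. Without F2 PNO 1 it was 3, all lower, against 6.15% of all genes. In a fit of all 24 libraries 4 were lower and 1 higher, against 8.73% and 5.12% of all genes. After adjustment 0 protocadherins passed, with 1 gene (0.00576%) doing so in all. Of the markers, 2 of 3 blood genes tested (both named Hba-a2) were higher at the unadjusted threshold. Of 8 oligodendrocyte lineage genes, 2 (Cspg4 and Olig1) were lower at it. Without F2 PNO 1 these numbers were 3 and 2, and the other lists had at most 1 in either direction. Their part was not tested.

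**Figure D3:**
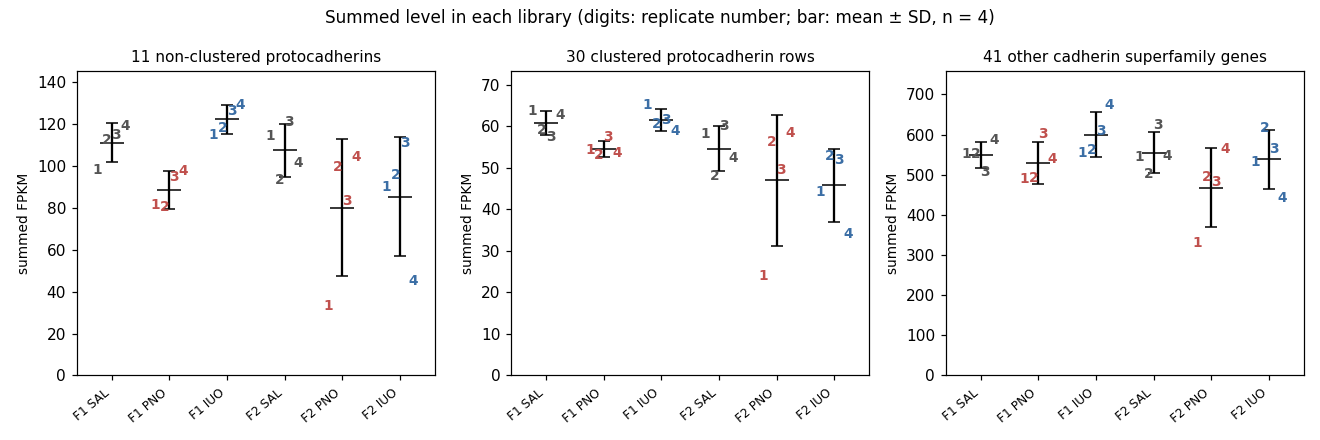
Summed FPKM of the 11 non-clustered protocadherins, the 30 clustered ones and 41 other cadherin superfamily genes in each library (digits: replicate) with the mean ± SD of each group (bars, n = 4), on linear axes from 0. F2 PNO 1 and F2 IUO 4 lie lowest for all 3 sums.

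Pcdh8 led this comparison. By exact permutation, 2 of 40 protocadherins had a p under 0.05, all lower in PNO. Of all 17367 genes, 757 were lower and 460 higher by that test. For Pcdh8 the values were 26.4, 19, 24.5 and 21.2 FPKM in F2 SAL 1 to 4 and 4.94, 12.5, 12.6 and 18.2 in F2 PNO 1 to 4. The groups did not overlap, and F2 PNO 1 was the lowest. The log2 difference was -1.04 (95% interval -1.82 to -0.26, limma adjusted p = 0.386, exact permutation p = 0.0286), and -0.66 without F2 PNO 1. Pcdhb6 (ENSRNOG00000054953) measured 0.87, 0.29, 0.5 and 0.69 FPKM in F2 SAL 1 to 4 and 0.2, 0.14, 0.04 and 0.32 in F2 PNO 1 to 4. F2 SAL 2 lay inside the PNO range and F2 PNO 3 was nearly at 0, for a difference of -1.35 (-2.38 to -0.32, limma adjusted p = 0.393, exact permutation p = 0.0571) that was -1.43 without F2 PNO 1.

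The next 3 genes by p had estimates of either sign. Pcdh10 was at 31.4, 26.1, 35.1 and 30.7 FPKM in F2 SAL 1 to 4 and at 7.1, 24.6, 20.6 and 27 in F2 PNO 1 to 4. The difference was -0.79 with all libraries and -0.35 without F2 PNO 1, which had less than any other library, and the unadjusted p was under 0.05 only without F2 PNO 1, 2 or 4. For Pcdh20 (ENSRNOG00000013306) the values were 3.11, 2.27, 3.84 and 3.35 FPKM in F2 SAL 1 to 4 and 4.67, 5.27, 3.66 and 3.8 in F2 PNO 1 to 4. Pcdh20 was not low in F2 PNO 1, and its estimate was higher in PNO, at 0.47 and, without that library, 0.43, with an unadjusted p under 0.05 only without F2 SAL 3. Pcdha4 ENSRNOG00000050378 measured 2.19, 2.09, 2.81 and 1.87 FPKM in F2 SAL 1 to 4 and 0.18, 1.73, 1.3 and 1.8 in F2 PNO 1 to 4. For this alpha gene all 4 PNO values were below the SAL values, and the difference went from -1.10 to -0.45 without F2 PNO 1. The limma adjusted p values of the 3 genes lay between 0.474 and 0.511.

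Comparing F2 IUO with F2 SAL asks the same of pups whose mothers were exposed from before birth. Their protocadherin sum was 131 ± 36.7 FPKM, with 34 of 40 estimates lower than in SAL and a median log2 difference of -0.30, which became -0.12 with 27 lower when F2 IUO 4 was left out. All genes had a median of -0.08, or -0.01 without F2 IUO 4. At an unadjusted p under 0.05 by limma, 3 of 40 genes (7.50%) were lower and 0 higher, against 4.97% lower and 3.52% higher of 17097 genes. After adjustment 0 protocadherins and 0% of genes passed. By exact permutation, 1 of 40 protocadherins had a p under 0.05, lower in IUO. Of all 17097 genes, 468 were lower and 406 higher by that test. A limma fit of all 24 libraries gave 5 lower and 0 higher, against 6.20% and 3.28% of all genes. The count, all lower, was 2 without F2 IUO 4 (3.72% of all genes) and 5 without F2 IUO 3 (7.33%). It was 1 without F2 SAL 1 or F2 SAL 4 and 0 without F2 SAL 3. For these last fits, the range of the share of all genes is given with the leave-one-out counts below.

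Gamma genes had the lowest median of the subgroups, -0.40, with all 10 estimates lower, or -0.31 with 9 of 10 lower when F2 IUO 4 was left out. Pcdhga6 was at 4.3, 3.29, 3.67 and 2.41 FPKM in F2 SAL 1 to 4 and at 1.84, 2.69, 1.91 and 1.9 in F2 IUO 1 to 4. One IUO pup, F2 IUO 2, lay inside the SAL range, and the log2 difference was -0.67 (95% interval -1.22 to -0.13, limma adjusted p = 0.553, exact permutation p = 0.0571). It was -0.64 without F2 IUO 4, and the call was lost without F2 SAL 1 or 3. For Pcdhga5 the values were 1.33, 0.85, 0.94 and 1.16 FPKM in F2 SAL 1 to 4 and 0.7, 0.32, 0.51 and 0.75 in F2 IUO 1 to 4. Every IUO value was below every SAL value, with a difference of -0.84 (-1.60 to -0.08, limma adjusted p = 0.567, exact permutation p = 0.0286) and of -0.97 without F2 IUO 4. This call was lost without F2 SAL 1, 3 or 4 or F2 IUO 2 or 3. Pcdh7 measured 5.37, 4.01, 6.56 and 5.15 FPKM in F2 SAL 1 to 4 and 2.06, 4.33, 4.92 and 1.32 in F2 IUO 1 to 4. Both F2 IUO 1 and F2 IUO 4 were low, and Pcdh7 gave -0.88 (-1.76 to -0.00302, limma adjusted p = 0.588, exact permutation p = 0.114), or -0.54 without F2 IUO 4. It was no longer under the unadjusted threshold without F2 SAL 1, 3 or 4 or F2 IUO 1 or 4.

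Pcdhb22 was at 1.64, 1.8, 2.67 and 1.63 FPKM in F2 SAL 1 to 4 and at 1.09, 1.29, 1.67 and 0.27 in F2 IUO 1 to 4. For Pcdhb11 (ENSRNOG00000020066) the values were 1.21, 0.72, 0.88 and 1.28 FPKM in F2 SAL 1 to 4 and 0.33, 0.88, 0.78 and 0.45 in F2 IUO 1 to 4. These beta genes came next, with overlapping groups and differences of -0.97 and -0.71, or -0.48 and -0.61 without F2 IUO 4. Their unadjusted p was under 0.05 only without F2 IUO 3 and F2 IUO 2, in that order. Their limma adjusted p values were 0.603 and 0.616. In the same pups 5 of 8 cortex markers were higher and 3 of 11 striatum markers lower than in SAL at an unadjusted p under 0.05. Cortex sums were 1511, 1600, 865 and 1509 FPKM in F2 IUO 1 to 4 and 1081, 1135, 569 and 747 in F2 SAL 1 to 4. Nrgn alone held 1182, 1223, 670 and 1215 FPKM of the F2 IUO sums and 895, 893, 419 and 567 of the F2 SAL sums. Without F2 IUO 4, 5 of 8 cortex markers were higher and 7 of 11 striatum markers lower at the same threshold. Blood markers were higher in IUO for 2 of 3 tested with and without that library, both named Hba-a2. Hypothalamus markers were higher for 1 of 7 with it and 3 of 7 without it. Their part was not tested.

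Between F2 IUO and F2 PNO the protocadherins did not separate. Each group holds one of the libraries with low sums, and 21 of 40 estimates were higher in IUO and 19 lower. Without both libraries, an alternative chosen after seeing the data, 11 were higher and 29 lower, and the median log2 difference went from 0.02 to -0.14. One gene, Pcdhb6, was higher and 0 lower at an unadjusted p under 0.05 by limma (2.50%), against 4.59% higher and 2.48% lower of 17090 genes, and 0 protocadherins and 0% of genes passed after adjustment. Without both libraries the count was 3, with 2 higher and 1 lower, against 4.43% and 3.45% of all genes. Leaving out F2 PNO 1 alone gave 0 higher and 2 lower, against 4.06% and 4.16%, with 35 of 40 estimates lower. Leaving out F2 PNO 4 or F2 IUO 4 gave 2 higher and 0 lower, against 6.13% and 4.21% of all genes higher, and 0 passed without any of the other 5 libraries. When all 24 libraries were fitted together, 2 were higher and 1 lower, against 6.41% and 5.16% of all genes. All 8 cortex markers had a higher estimate, with a median of 1.26 and 1 past the threshold, and all 11 striatum markers a lower one, with a median of -0.38 and 0 past it. The cortex estimates stayed higher for 8 of 8 without F2 PNO 1 and without both libraries, but the medians fell to 0.48 with 0 past the threshold and 0.61 with 1 past it. For the striatum list the medians were then -0.34, with 10 of 11 lower and 0 past, and -0.55, with 11 of 11 lower and 4 past. Of 7 hypothalamus markers tested, 1 was higher in IUO at the threshold, or 3 without F2 PNO 1 and 4 without both. Their part was not tested.

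Pcdhb6 measured 0.54, 0.87, 0.42 and 0.24 FPKM in F2 IUO 1 to 4. F2 PNO values for Pcdhb6, given above, reached 0.32 at most, so that F2 IUO 4 alone lay in their range, and the log2 difference was 1.17 (95% interval 0.05 to 2.30, limma adjusted p = 0.684, exact permutation p = 0.0571), or 1.51 without both libraries. It was under the unadjusted threshold with all libraries and without F2 PNO 4 or F2 IUO 4, but not without any other single library. Pcdhga5 measured 0.68, 1.03, 1.16 and 1.15 FPKM in F2 PNO 1 to 4 and 0.7, 0.32, 0.51 and 0.75 in F2 IUO 1 to 4. Pcdhga5 gave -0.75 with all libraries, or -1.04 without both libraries, where its unadjusted p was under 0.05. Pcdh8 was at 21.3, 19.6, 22 and 12 FPKM in F2 IUO 1 to 4. Pcdh8 gave 0.73 with all libraries, 0.35 without F2 PNO 1, 0.93 without F2 IUO 4 and 0.55 without both. Its unadjusted p was under 0.05 without both and without F2 PNO 4 or F2 IUO 4, but not without F2 PNO 1. Pcdh20 measured 3.35, 2.81, 5 and 2.62 FPKM in F2 IUO 1 to 4. Pcdha4 ENSRNOG00000050378 was at 2.3, 2.47, 2.54 and 0.85 FPKM in F2 IUO 1 to 4. Pcdh20 and this alpha gene gave -0.36 and 0.88, or -0.21 and 0.58 without both libraries. The alpha gene was at 0.23 without F2 PNO 1, and Pcdh20 at -0.55 without F2 IUO 3. Upper-quartile scaling moves the median of all genes by -0.16 log2 units here, and the protocadherin median then turns to -0.14, with 0 genes higher and 1 lower (Pcdhga5) at the unadjusted threshold, against 1.53% and 7.18% of all genes. With a cortex covariate 0 were higher and 3 lower, against 4.38% and 10.0% of all genes, and 37 of 40 estimates were lower.

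Comparing F2 SAL with F1 SAL shows how far the controls of the generations differ. Generation and whatever else differed between these litters cannot be told apart in it. Protocadherins were lower in F2 controls in 33 of 40 estimates, with a median log2 difference of -0.20 against -0.02 for all genes. At an unadjusted p under 0.05 by limma, 2 of 40 genes (5.00%) were lower and 0 higher, against 4.69% lower and 3.78% higher of 17497 genes. No protocadherin passed after adjustment, while 6 genes (0.0343%) did. Fitted with all 24 libraries, 1 was lower and 0 higher, against 1.74% and 2.51% of all genes. By exact permutation, 5 of 40 protocadherins had a p of 0.0286, all lower in F2 (Pcdhb14, Pcdhb9, Pcdhb10, Pcdhga4 and Pcdhga8), against 3.16% of all genes lower and 1.82% higher. The count of 2 became 7, all lower, without F2 SAL 3, against 6.22% of all genes, and 0 without F1 SAL 2, F1 SAL 4, F2 SAL 2 or F2 SAL 4. The choroid plexus list summed to 5204 FPKM in F1 SAL 1 and to between 5.70 and 84.2 in the other 7 control libraries, with 0 of its 8 markers past the threshold. Cortex markers had a higher estimate in F2 for 7 of 8, 1 of them past it. The fifth of genes with the longest spans averaged -0.05 log2 units in F2 SAL and 0.07 in F1 SAL. The part of the markers and of gene span was not tested.

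Pcdhb14 (ENSRNOG00000020059) was at 1.83, 1.83, 1.63 and 2.44 FPKM in F1 SAL 1 to 4 and at 1.43, 0.91, 1.57 and 1.24 in F2 SAL 1 to 4. The F2 values were all below the F1 values, with a log2 difference of -0.56 (95% interval -1.06 to -0.06, limma adjusted p = 0.585, exact permutation p = 0.0286). Pcdhb9 measured 2.36, 1.96, 2.57 and 1.95 FPKM in F2 SAL 1 to 4. All 4 F1 SAL values of Pcdhb9, given above, were higher, and it differed by -0.39 (-0.75 to -0.03, limma adjusted p = 0.585, exact permutation p = 0.0286). For Pcdhb10 (ENSRNOG00000029244) the values were 1.38, 1.21, 1.35 and 1.38 FPKM in F1 SAL 1 to 4 and 0.85, 0.91, 1.2 and 0.96 in F2 SAL 1 to 4. Pcdhga4 (ENSRNOG00000042322) measured 2.63, 2.16, 2.17 and 2.29 FPKM in F1 SAL 1 to 4 and 2.03, 1.42, 1.83 and 1.84 in F2 SAL 1 to 4. For both, the F2 values again lay wholly below, with differences of -0.41 and -0.37. Pcdh18 was at 2.94, 2.6, 3.61 and 3.17 FPKM in F2 SAL 1 to 4. Pcdh18 overlapped its F1 values and gave -0.38. Of single libraries, leaving out F1 SAL 1 ended the call of Pcdhb14 and leaving out F1 SAL 3 that of Pcdhb9, beside the 4 that ended both. Pcdhb10 was under the threshold only without F2 SAL 3 and Pcdh18 only without that library or F1 SAL 1. The limma adjusted p values of these last 3 genes were 0.590 to 0.605.

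Whether the effect of exposure differs between the generations was tested directly as an interaction, the F2 difference minus the F1 difference, in genes with at least 0.1 FPKM in 8 or more of the 16 libraries. For IUO against SAL, 5 of 40 protocadherins (12.5%) had a more negative difference in F2 at an unadjusted p under 0.05 by limma and 0 a more positive one, against 3.61% and 1.56% of 17102 genes, and 0 protocadherins and 0% of genes passed after adjustment. They were Pcdhga6 (-0.92), Pcdhgb5 (-0.68), Pcdh7 (-1.03), Pcdh10 (-0.99) and Pcdhb22 (-1.28), all with a limma adjusted p of 0.915. Without F2 IUO 4 the count was 3, against 2.57% of all genes more negative. It was 2 without F1 IUO 3 or F2 SAL 3 and 3 without F1 SAL 3, F1 SAL 4, F1 IUO 4 or F2 SAL 4. The share of all genes also moved between these fits, and its range is given with the leave-one-out counts below. All 11 striatum markers had a more negative estimate too, with a median of -0.53 and 0 past the threshold, or 2 without F2 IUO 4. Their part was not tested.

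For PNO against SAL, 1 of 40 had a more negative difference in F2 (Pcdhb6, -1.29, limma adjusted p = 1) and 0 a more positive one, against 2.44% and 1.46% of 17268 genes, and 0 protocadherins and 0% of genes passed after adjustment. Leaving out F2 PNO 1 gave 3 more positive and 1 more negative, against 4.92% and 2.17% of all genes. The count was 0 without F2 SAL 1, and 2, both more negative, without F2 PNO 2 or F2 PNO 4, against 2.31% and 3.59% of all genes. With upper-quartile scaling the median of the protocadherins turned from -0.06 to 0.03. All 8 thalamus and all 8 cortex markers had a more negative estimate, with medians of -0.95 and -1.21 and 1 of each past the threshold, and all 11 striatum markers a more positive one, with a median of 0.29 and 0 past it. Without F2 PNO 1 this was 7 of 8 for thalamus (-0.90, 0 past), 6 of 8 for cortex (-0.50, 1 past) and 11 of 11 for striatum (0.31, 1 past). For IUO against PNO, 2 of 40 were more negative in F2 (Pcdhga6, -1.16, limma adjusted p = 0.803, and Pcdhga5, -1.13, limma adjusted p = 0.816) and 0 more positive, against 2.77% and 3.11% of 17032 genes, with 0 protocadherins and 0% of genes past adjustment. Without F2 PNO 1 the count was 10, all more negative, against 9.07% of all genes, and it was 8 without both libraries with low sums, against 7.44%, and 3 without F2 IUO 2, all more negative, against 2.78%. With a cortex covariate it was 13, all more negative, against 13.1% of all genes. Of 11 striatum markers, 7 were more negative at the threshold, with a median of -0.89, and 10 without both libraries. Thalamus markers had a more positive estimate for 7 of 8, with a median of 1.22 and 2 past the threshold. Without both libraries 3 passed it as more positive and 1 as more negative. All 8 cortex markers had a more positive estimate (median 0.99, or 0.43 without both). More negative estimates were given by 8 of 8 oligodendrocyte lineage markers (-0.50, or -0.16) and 6 of 7 hypothalamus markers (-1.93, or -0.98). The part of the markers was not tested.

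Some regulators of the clusters offer a view of their own, and these are described singly, with no count over their list. In F1 IUO against F1 PNO, Dnmt3a, Pds5a and Dnmt1 were higher at an unadjusted p under 0.05. Dnmt3b averaged 0.0475 ± 0.0299 FPKM in F1 IUO and 0.2075 ± 0.0655 in F1 PNO (SD, n = 4). It passed the filter of 0.1 FPKM only through PNO libraries, so no call is drawn from it. Dnmt3a, which methylates DNA de novo, was at 21.8 ± 2.19 FPKM in F1 IUO and 12.1 ± 1.15 in F1 PNO (SD, n = 4), with a log2 difference of 0.84 that passed after adjustment (limma adjusted p = 0.0468). In F1 SAL it averaged 16.5 ± 1.96 FPKM. Against SAL it was lower in PNO (limma adjusted p = 0.233) and higher in IUO (limma adjusted p = 0.999), each at an unadjusted p under 0.05.

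In F2 SAL against F1 SAL, where 4.69% of all genes were lower, Wapl, Smc3, Nipbl, Stag2, Smchd1, Smc1a and Pds5a were lower at that threshold, and Rad21, Stag1 and Pds5b, among others, did not pass it. Wapl, which releases cohesin from DNA, averaged 3.51 ± 0.0775 FPKM in F2 SAL and 5.41 ± 0.390 in F1 SAL (limma adjusted p = 0.496). At the same threshold Wiz was lower in F2 PNO than in F2 SAL (limma adjusted p = 0.365, and 0.314 without F2 PNO 1) and higher in F2 IUO than in F2 PNO (limma adjusted p = 0.684), where it no longer passed without F2 PNO 1.

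Partners and effectors of protocadherins, 16 genes of the WAVE complex, focal adhesion kinases, catenin and others, were all found. In F1 IUO against F1 PNO, 6 were higher (Abi2, Mapk14, Fyn, Ctnnb1, Nckap1 and Cyfip1) and 1 lower (Pdcd10) at an unadjusted p under 0.05, against 10.1% and 6.41% of all genes, and 0 passed after adjustment. Abi2, a WAVE complex subunit, averaged 28.4 ± 3.11 FPKM in F1 SAL, 29.4 ± 3.76 in F1 IUO and 21.2 ± 1.77 in F1 PNO. F1 PNO against F1 SAL gave 1 higher and 2 lower, against 6.11% and 7.83% of all genes, F1 IUO against F1 SAL 0, and F2 SAL against F1 SAL 3 lower, against 4.69%. F2 IUO against F2 SAL gave 1 higher (Pdcd10), against 3.52% of all genes, with or without F2 IUO 4. F2 PNO against F2 SAL gave 1 higher too, against 3.97%, which was Pdcd10 with all libraries and Nckap1 without F2 PNO 1. F2 IUO against F2 PNO gave 1 higher (Wasf1), against 4.59%, with all libraries and without both that had low sums. Of the 41 other cadherin superfamily genes, 31 or 32 were tested in each comparison. They gave 2 higher and 5 lower in F1 PNO against F1 SAL, 5 higher and 2 lower in F1 IUO against F1 PNO, beside the same shares of all genes, and at most 3 in either direction elsewhere. F1 IUO against F1 SAL gave 1 lower, against 1.97% of all genes, and F2 SAL against F1 SAL 2 lower, against 4.69%. In F2 they went from 1 lower to 1 higher for IUO against SAL without F2 IUO 4, from 3 lower to 2 higher and 2 lower for PNO against SAL without F2 PNO 1 and from 0 to 2 higher for IUO against PNO without both. With all libraries, the shares of all genes were 3.52% higher and 4.97% lower, 3.97% and 6.83%, and 4.59% and 2.48%, in that order.

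Set against these other cadherins, protocadherins were low in the libraries that stood apart. The ratio of the protocadherin sum to the other cadherin sum was 0.173 in F2 PNO 1 and 0.179 in F2 IUO 4 and lay between 0.241 and 0.340 in the other 22. Group means of the ratio were 0.314 in F1 SAL, 0.271 in F1 PNO, 0.308 in F1 IUO, 0.292 in F2 SAL, 0.263 in F2 PNO and 0.24 in F2 IUO, or 0.293 and 0.261 in these last groups without F2 PNO 1 and F2 IUO 4. In F1 PNO the ratio spanned 0.253 to 0.281, below all F1 SAL values, 0.293 to 0.340. Such values were not confined to F1 PNO. F1 IUO 4 (0.279), F2 SAL 4 (0.280) and F2 PNO 3 (0.276) lay inside this PNO range, and F2 IUO 1 and 2 (0.252 and 0.241) below it. The ratio itself was not tested.

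Promoters of the beta and of the gamma genes were searched for stretches that recur within an array. RefSeq (build GRCr8) gives 300 bases, 250 before to 50 after the start, for 33469 promoters, and 32 of the 40 protocadherin names were found there by symbol. All clustered ones lie on chromosome 18, with Pcdh1 and Pcdh12, whereas Pcdh8, Pcdh9, Pcdh17 and Pcdh20 are on chromosome 15 and Pcdh10 and Pcdh18 on chromosome 2. Every stretch of 10 bases in the beta and gamma promoters was counted on both strands, and the most frequent one of each array was taken from these same sequences, so the counts are a description. GGTGGCGCTG, or its reverse complement CAGCGCCACC, stands in 15 of 19 beta promoters and in 0 of 11 non-clustered ones, and 0.221% of all promoters hold it. It includes CGCT, the core of the conserved element described for promoters of these clusters. The 11 non-clustered promoters include that of Pcdh11x, which is not in the expression data, and lack that of Pcdh19. Of the 15 beta promoters whose name is also in the expression data, 14 hold the stretch. The genes with it ran from 0.254 to 2.55 FPKM. Levels and promoters were joined by symbol, and some beta genes are described under another name. A promoter and a level may therefore belong to different genes. The promoter of Pcdhb1, at 0.0196 FPKM, does not have these letters in this window. Windows of 60 bases are shown for the 3 most abundant beta genes and for 3 beta genes named in the comparisons, 5′ to 3′ on the plus strand, with the shared stretch in capitals.

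Pcdhb7 (chr18:29328983-29329042): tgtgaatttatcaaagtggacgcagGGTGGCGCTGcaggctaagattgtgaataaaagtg
Pcdhb9 (chr18:29379233-29379292): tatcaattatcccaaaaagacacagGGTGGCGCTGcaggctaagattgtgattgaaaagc
Pcdhb19 (chr18:29478749-29478808): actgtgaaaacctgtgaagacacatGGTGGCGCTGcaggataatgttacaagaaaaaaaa
Pcdhb14 (chr18:29431794-29431853): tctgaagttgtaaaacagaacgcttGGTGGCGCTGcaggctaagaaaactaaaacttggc
Pcdhb10 (chr18:29391763-29391822): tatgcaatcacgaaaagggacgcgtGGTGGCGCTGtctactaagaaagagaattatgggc
Pcdhb6 (chr18:29320141-29320200): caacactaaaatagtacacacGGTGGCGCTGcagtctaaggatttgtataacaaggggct

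In 12 of the 14 the stretch ends less than 100 bases before the start, as in Pcdhb7 (36 bases), Pcdhb9 (42), Pcdhb14 (58), Pcdhb10 (62) and Pcdhb19 (64). In Pcdhb6 it ends 219 bases before. Gamma promoters had a stretch of their own. GCTGTTCACC, or its reverse complement GGTGAACAGC, stands in 7 of 15 gamma promoters, in 0 of 11 non-clustered ones and in 0.120% of all, and no clustered promoter holds both stretches. Among the 6 gamma names that are also in the expression data, 3 had it: Pcdhga1, Pcdhga5 and Pcdhga8. Pcdhga8, the most abundant of these 3, is shown.

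Pcdhga8 (chr18:29804991-29805050): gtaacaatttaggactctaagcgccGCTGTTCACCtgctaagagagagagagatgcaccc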

How the data were processed

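RNA of nucleus accumbens from 24 P14 Sprague Dawley rats was sequenced, 4 libraries in each of 6 groups. The authors aligned reads with HISAT2, handled them with SAMtools, assembled and merged transcripts with StringTie and also name edgeR. The values used are the FPKM the authors deposited, without any rescaling between libraries. Tool versions and the genome build are not given in the sources used here, and without counts the depth of each library is unknown.

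All 41 genes whose name starts with Pcdh were taken. Genes with at least 0.1 FPKM in 4 or more of 8 libraries (8 or more of 16 for interactions) were fitted with limma 3.58.1 in R 4.3.3 (lmFit, eBayes with trend) on log2(FPKM + 0.1), 2 groups at a time, with Benjamini-Hochberg adjustment over all genes tested. The result of a comparison is the number of protocadherins with an unadjusted p under 0.05, with the number after adjustment beside it. Each gene was also given an exact two-sided permutation test over the 70 splits of 4 against 4. Named genes are the 5 with the smallest p in each pair of groups and the 3 with the highest mean in each subgroup, 25 in all, which leaves 16 described in counts and means. Python 3.11.15 with numpy 2.4.6, pandas 2.3.3 and matplotlib 3.10.9 did the rest, and the fits were tested on simulated data. No pair of libraries was identical.

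Alternatives were a filter of 1 FPKM, testing every gene not at 0 throughout, adding 1 in place of 0.1 before the logarithm, upper-quartile scaling, all 24 libraries in one fit, the replicate number as a block, a thalamus or a cortex marker score as a covariate, and leaving out each library. Leaving out F2 PNO 1 and F2 IUO 4 together was added after seeing the data, as was leaving out either for gene and marker lists. The genes and marker lists were chosen with earlier results of these data known. Promoter sequences and gene spans come from RefSeq, build GRCr8, joined by symbol. No isoform values were used.

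1 regulator gene is not reported here, and counts over the list of regulators are left out with it.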

Additional observations from a re-analysis of the deposited data

Results flagged for a closer look

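Named protocadherins, and the summed levels of all, clustered and non-clustered protocadherins and of other cadherins, were looked at for a replicate far from the other 3 of its group, by the gap to the nearest of them relative to the range of the group (Dixon's test at 0.05). Of 174 groups, 150 of them of single genes, 9 had such a value, and chance alone gives about 1 in 20. Low values were in the libraries with the lowest protocadherin sums. In F2 IUO 4, Pcdha4 ENSRNOG00000050378 was at 0.85 FPKM, with 2.3 to 2.54 in the other replicates, and Pcdha4 ENSRNOG00000047174 at 0.57, with 1.38 to 1.54. In F2 PNO 1, Pcdhb11 was at 0.2 FPKM against 1.03 to 1.11 and Pcdhga2 at 1.59 against 3.07 to 3.32.

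High values were spread over 5 libraries. Pcdha4 ENSRNOG00000050378 reached 3.53 FPKM in F1 PNO 3, where the other replicates had 2.1 to 2.31. Pcdhb22 reached 2.67 in F2 SAL 3, next to 1.63 to 1.8. Pcdhb14 was at 2.01 FPKM in F2 IUO 3, above 1.2 to 1.32, and Pcdhga6 at 2.69 in F2 IUO 2, above 1.84 to 1.91. Pcdh1 was at 21.25 FPKM in F1 IUO 3 with 18.82 to 19.18 in the other replicates. Their cause was not tested.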

How the results depend on the processing

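Counts of protocadherins with an unadjusted p under 0.05 by limma moved with the settings as follows, and 0 passed after adjustment in any setting. Shares in brackets are those of all genes higher and lower in the same fit, in that order. With all 24 libraries in one fit, the count for F1 IUO against F1 SAL went from 1 higher to 0 (1.24% and 2.20%), for F1 PNO against F1 SAL from 7 lower to 2 lower (4.22% and 3.12%), for F1 IUO against F1 PNO from 10 higher to 2 higher (5.79% and 6.17%), for F2 IUO against F2 SAL from 3 lower to 5 lower (3.28% and 6.20%), for F2 PNO against F2 SAL from 2 lower to 5, with 1 higher and 4 lower (5.12% and 8.73%), for F2 IUO against F2 PNO from 1 higher to 3, with 2 higher and 1 lower (6.41% and 5.16%), and for F2 SAL against F1 SAL from 2 lower to 1 lower (2.51% and 1.74%), while the interaction of IUO against SAL went from 5 more negative to 3 more negative (1.63% and 2.53%). With the thalamus score as covariate these counts were 0 for F1 IUO against F1 SAL (2.10% and 2.12%), 3 lower for F1 PNO against F1 SAL (2.29% and 2.67%), 5 lower for F2 IUO against F2 SAL (4.87% and 6.27%), 0 for F2 IUO against F2 PNO (4.52% and 2.54%) and 4 lower for F2 SAL against F1 SAL (6.15% and 6.18%). The cortex score gave 0 for F1 IUO against F1 SAL (1.44% and 1.33%), 6 higher for F1 IUO against F1 PNO (3.35% and 3.73%), 4 lower for F2 PNO against F2 SAL (5.25% and 7.98%), 3 lower for F2 IUO against F2 PNO (4.38% and 10.0%), 1 lower for F2 SAL against F1 SAL (3.31% and 4.43%) and 13 more negative for the interaction of IUO against PNO (4.50% and 13.1%).

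A filter of 1 FPKM, which leaves fewer members to test, gave 0 for F1 IUO against F1 SAL (2.11% and 1.41%), 1 lower for F2 PNO against F2 SAL (4.34% and 7.82%), 0 for F2 IUO against F2 PNO (5.51% and 2.08%), 0 for the interaction of PNO against SAL (1.14% and 2.51%) and 1 more negative for that of IUO against PNO (3.43% and 2.58%). A pseudocount of 1 gave 2 for F2 IUO against F2 PNO, 1 higher and 1 lower (4.67% and 2.43%), and 2 more negative for the interaction of PNO against SAL (1.55% and 2.44%). Upper-quartile scaling gave 5 lower for F2 SAL against F1 SAL (2.57% and 6.55%), and F1 IUO against F1 SAL and F2 IUO against F2 PNO each went from 1 higher to 1 lower (0.911% and 3.92%, then 1.53% and 7.18%). Taking the replicate number as a block gave 0 for F1 IUO against F1 SAL (2.17% and 1.78%), F2 IUO against F2 PNO (3.14% and 1.66%) and F2 SAL against F1 SAL (2.47% and 2.71%), but the numbers do not pair samples: residuals of equal numbers correlated at -0.269 to 0.121. Without F2 PNO 1 and F2 IUO 4, chosen after seeing the data, F2 IUO against F2 PNO gave 3, 2 higher and 1 lower (4.43% and 3.45%), and the interaction of IUO against PNO 8 more negative (3.42% and 7.44%).

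Leaving out 1 library at a time gave 0 to 1 higher for F1 IUO against F1 SAL (all genes 1.36% to 3.72% and 1.40% to 2.91%), 5 to 8 lower and 0 to 1 higher for F1 PNO against F1 SAL (4.24% to 8.07% and 4.78% to 11.8%), 7 to 11 higher and 0 to 1 lower for F1 IUO against F1 PNO (6.39% to 13.6% and 4.20% to 8.19%), 0 to 5 lower for F2 IUO against F2 SAL (2.42% to 3.99% and 2.55% to 7.33%), 2 to 3 lower and 0 to 1 higher for F2 PNO against F2 SAL (2.65% to 5.55% and 4.39% to 10.9%) and 0 to 7 lower for F2 SAL against F1 SAL (2.31% to 4.87% and 2.87% to 6.22%). F2 IUO against F2 PNO gave 2 lower in IUO without F2 PNO 1, 2 higher without F2 PNO 4 or F2 IUO 4 and 0 without any of the other 5 libraries (2.74% to 6.13% and 1.40% to 4.16% over the 8 fits). The interactions gave 2 to 6 more negative for IUO against SAL (1.16% to 2.01% and 2.47% to 5.96%), 0 to 2 more negative for PNO against SAL, with 3 more positive without F2 PNO 1 (1.08% to 4.92% and 1.57% to 3.59%), and 2 to 10 more negative for IUO against PNO (2.30% to 4.17% and 1.95% to 9.07%).

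Of 560 values of the named genes under these settings, 453 stayed on the same side of the unadjusted threshold, 37 passed it, 69 no longer did and 1 turned sign: Pcdha4 ENSRNOG00000050378 in F2 IUO against F2 PNO, at -0.15 with the cortex score. The cause was not tested.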
